A study of Rattus norvegicus with 20 samples.

Results

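Subcutaneous fat of resveratrol rats was compared with that of obese rats on 10 of the 20 arrays of the series, the 5 labelled resveratrol and the 5 labelled obese, and every difference is resveratrol minus obese. The arrays were chosen by these labels alone. All rats are labelled male and of the ZDF line (Zucker diabetic fatty, strain given as Zucker), whose obese animals carry a defective leptin receptor and become obese and diabetic. Obese rats had 6 weeks of a stock diet, lean control rats were fed Purina 5008 chow, and the remaining groups were named for rosiglitazone, an agonist of the nuclear receptor PPAR gamma, and resveratrol. The labels used here give no dose, route, length of treatment or age, and they do not say whether the treated rats were obese or what they ate. The tissue is labelled only as subcutaneous. Each group had 5 arrays of biological replicates, and expression was read on Rat Gene 2.1 ST strips from 100 ng of total RNA per sample, in units of log2 after RMA (background correction, normalisation between arrays and a summary over the probes of a transcript cluster).

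Resveratrol is a plant polyphenol that has been studied as an activator, direct or indirect, of the deacetylase SIRT1 and of the energy sensor AMPK. Both act on the coactivator PGC-1 alpha, which together with the nuclear respiratory factors drives genes of mitochondrial respiration. White fat stores triglyceride in adipocytes and also holds stromal cells, macrophages, vessels and, in the subcutaneous pads of rats, mammary ducts. The comparison asks which of these programmes differed between fat of resveratrol and of obese rats.

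The values covered 36685 transcript clusters, of which 14824 carried 1 gene symbol in the array maker's annotation held by GEO, 829 carried several and 21032 are unnamed here. Adipocyte markers were bright on all 10 arrays. Adipoq (adiponectin) lay between 10.55 and 10.93, Plin1 (perilipin 1, the coat of the lipid droplet) between 9.77 and 10.33, and Fabp4 (the fatty acid carrier aP2) between 11.06 and 11.37. The markers of muscle and of T cells lay well below these. The muscle genes Acta1, Ckm and Myh4 reached at most 4.67, 2.91 and 2.13, and the T cell gene Cd3e at most 2.29, where the median level over all clusters was 2.55. Before any result, 3 observations on arrays have to be stated. Obese 3 had a compressed range of values (SD over all clusters 1.66, against 1.80 to 1.89 on the other obese arrays and 1.90 to 1.93 on resveratrol arrays). Obese 3 and obese 4 carried RNA of gland epithelium that the other 8 arrays did not show. Lean 2, which enters through the shared estimate of the spread and the lean means, went against its label, since its leptin level (Lep, 10.3) and many other values were those of the resveratrol arrays: of 3731 clusters in which the other 4 lean arrays did not overlap the resveratrol arrays, its value fell within the resveratrol range in 59.5%, against 19.4% to 26.1% for the other lean arrays.

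No cluster passed an adjusted p of 0.05 for resveratrol against obese (0 of 36685, percentage called 0; limma, Benjamini-Hochberg over all clusters). The smallest adjusted p was 0.0563 and was shared by 37 clusters. At an unadjusted p under 0.05, 13.0% of clusters were higher with resveratrol and 12.1% lower. The 5 resveratrol arrays lay wholly above the 5 obese arrays in 1168 clusters (3.18%) and wholly below them in 690 (1.88%). The count of calls depended on single arrays. It became 3314 when obese 1 was left out and 2301 when obese 4 was, and, since lean rats share in the estimate of the spread, 1074 in the absence of lean 1, 232 in that of lean 2 and 1 in that of lean 4. These are 9.03%, 6.27%, 2.93% and 0.632% of all clusters for obese 1, obese 4, lean 1 and lean 2. Obese 1 and obese 4 were also the obese arrays nearest to resveratrol. Of the 3946 clusters in which the other 4 obese arrays did not overlap the resveratrol arrays, obese 1 fell within the resveratrol range in 45.8%, and obese 4 did so in 36.7% of 3386, against 7.79% to 21.0% for obese 2, 3 and 5. The count was 0 when any other array was left out alone, and 12 when obese 3 and obese 4 were left out together. All differences from obese given for single genes therefore describe these arrays, and none passed the test over all clusters.

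Much of the difference between the groups followed the brightness of a cluster. In deciles of clusters ordered by mean level, the median log2 difference was -0.11 in the dimmest decile and -0.17 in the next, then 0.22, 0.31 and 0.32 in the 3 brightest. The gap between the means of the brightest and the dimmest decile was 6.03, 5.82, 5.08, 6.05 and 5.70 on obese arrays 1 to 5, and 6.12 to 6.20 on the resveratrol arrays. All resveratrol arrays thus lay above all obese arrays, and obese 3 lay lowest (mean difference 0.40, two-sided exact permutation p = 0.00794, the smallest that 5 against 5 arrays can give, and 0.00794 after adjustment over 3 array-level values). The array SD was 1.91 ± 0.011 with resveratrol and 1.81 ± 0.091 in obese (SD, n = 5, exact permutation p = 0.00794, adjusted 0.00794). The array median was 2.51 ± 0.014 and 2.64 ± 0.10, a difference of -0.13 (exact permutation p = 0.00794, adjusted 0.00794). In the brightest decile, obese 3 lay 0.85 log2 units below the resveratrol mean in median and obese 5 lay 0.31 below it, while obese 1 lay 0.07 below it. Resveratrol rats also differed less among themselves, with a median SD of a cluster of 0.22 against 0.36 in obese, and the SD was lower with resveratrol in 76.1% of clusters. The part of these array-wide differences in the gene values that follow was not tested. Beside the median of each gene list stand its values after quantile normalisation, which gives all arrays 1 distribution, and without obese 3. The median of all clusters above the median level was 0.19 as deposited, 0.11 after quantile normalisation and 0.13 without obese 3.

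**Figure D1:**
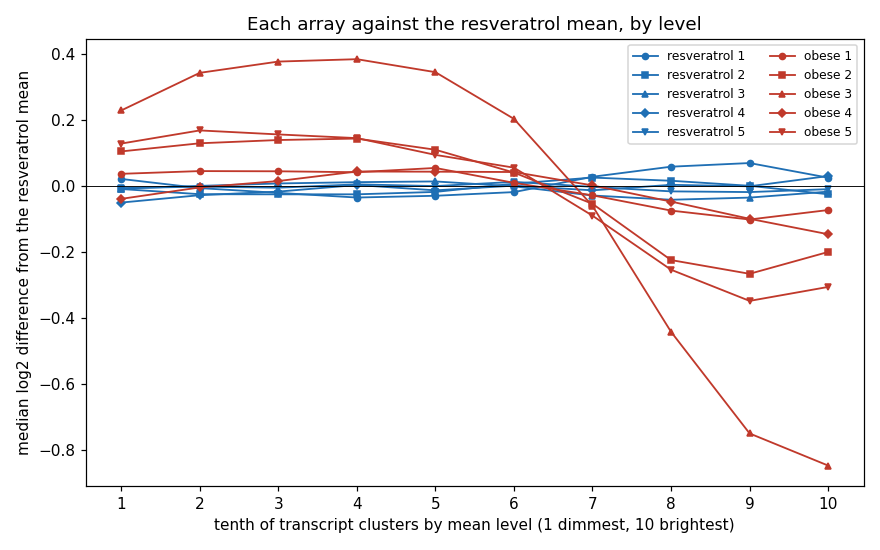
Median log2 difference of each array from the mean of the 5 resveratrol arrays (vertical axis), in 10 equal groups of transcript clusters from the dimmest to the brightest (horizontal axis). The resveratrol arrays stay near 0, while obese 3 lies above 0 in the dim groups and 0.85 below it in the brightest.

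Among named genes the differences of at least 2-fold were 66 upward and 78 downward. Obese 3 was the lowest obese array in 51 of the 66. Of the 78, obese 3 and obese 4 were the 2 highest obese arrays in 39. The gene names that follow are the 12 clusters in each direction with the largest difference among bright enough clusters whose groups did not overlap, so the separation of the groups is a property of the choice.

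Oxtr, the receptor of oxytocin, headed the genes higher with resveratrol. Its log2 level was 6.58, 5.95, 4.47, 6.11 and 5.88 on obese arrays 1 to 5 and 7.81, 8.16, 7.59, 7.75 and 7.98 on resveratrol arrays 1 to 5. Every resveratrol array lay above every obese array, and the means differed 4.17-fold (log2 2.06, SE 0.58, limma adjusted p = 0.0738). Rosiglitazone rats had 4.49 ± 0.56 (SD, n = 5), so that Oxtr was higher with resveratrol than with rosiglitazone by 3.37, a difference that passed the test (adjusted p = 0.00211). Lean rats had 6.21 ± 1.75, a wide range, and 5.65 ± 1.42 (n = 4) without lean 2. Without obese 3 the difference from obese was 1.73.

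Gatm, the enzyme of the first step of creatine synthesis, measured 4.48, 3.22, 1.95, 3.35 and 3.12 on obese arrays and 4.99, 5.08, 4.94, 5.09 and 5.08 on resveratrol arrays. The resveratrol arrays lay close together (SD 0.07) while the obese arrays were spread (SD 0.90), and the mean was 3.51-fold higher (log2 1.81, SE 0.48, adjusted p = 0.0695). Slain2, which promotes microtubule growth, measured 4.70, 3.31, 3.25, 4.03 and 3.46 in obese and 5.14, 5.14, 5.52, 5.19 and 4.94 with resveratrol (2.71-fold, SE of the log2 difference 0.27, adjusted p = 0.0563). It had the smallest adjusted p of the 24 leading clusters, and obese 1 was its highest obese array. Slain2 has 2 clusters on the array. These values are those of 1 of them, and the other did not enter the leading set and is not given here. Ackr4, a scavenging receptor of chemokines, measured 3.25 to 3.53 on 4 obese arrays, 4.46 on obese 4 and 4.65 to 5.71 with resveratrol (log2 difference 1.36, SE 0.31, adjusted p = 0.0646).

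Elovl6 and Hacd4 of this leading set belong to lipid chain elongation. Elovl6, which lengthens C16 fatty acids, measured 5.31, 5.40, 3.95, 5.12 and 3.89 in obese and 7.11, 5.98, 5.75, 6.07 and 5.77 with resveratrol. Resveratrol 1 stood above its group mates, and the log2 difference was 1.40 (SE 0.39, adjusted p = 0.0738) with it and 1.16 without it. Elovl6 was higher still with rosiglitazone (8.38 ± 0.36), and the difference between the treatments passed the test (resveratrol lower by 2.24, adjusted p = 0.00246). Hacd4, of the family of dehydratases that act in the same elongation cycle, measured 2.85 to 4.06 in obese and 4.57 to 5.09 with resveratrol (log2 difference 1.22, SE 0.27, adjusted p = 0.0622). Unlike Elovl6 it was higher with resveratrol than with rosiglitazone, by 1.12 (adjusted p = 0.0293). Prkaa2, the alpha 2 catalytic subunit of AMPK, measured 5.74, 5.16, 4.11, 5.77 and 5.04 in obese and 6.43, 6.29, 6.59, 6.32 and 6.22 with resveratrol (2.31-fold, SE of the log2 difference 0.32, adjusted p = 0.0695). Its groups did not overlap, and rosiglitazone rats had 6.04 ± 0.22.

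Lum, Aspn, F13a1, Cntn1 and Tnfrsf11b completed the upward set. Lum (lumican, a collagen-binding proteoglycan) differed by 1.45 (SE 0.49, adjusted p = 0.0977) and Aspn (asporin, of the same family) by 1.23 (SE 0.55, adjusted p = 0.173). For both, obese 3 was the lowest array, with 3.44 and 2.89, and Lum differed by 0.83 without obese 3 and obese 4. Against rosiglitazone, Lum was higher with resveratrol by 2.68 (adjusted p = 0.00371) and Aspn lower by 2.14 (adjusted p = 0.0463). F13a1, the A chain of clotting factor XIII, which tissue macrophages also make, differed by 1.34 (adjusted p = 0.0757), and by 0.70 without obese 3 and obese 4. Cntn1, a neuronal adhesion protein, differed by 1.29 (adjusted p = 0.147) and was higher with resveratrol than with rosiglitazone by 2.36 (adjusted p = 0.0192). Tnfrsf11b (osteoprotegerin, a decoy receptor of RANK ligand) measured 2.58 to 3.70 in obese and 4.15 to 4.84 with resveratrol, a difference of 1.21 (adjusted p = 0.0671), and rosiglitazone rats lay higher at 6.09 ± 0.77 (resveratrol lower by 1.58, adjusted p = 0.00493). In all, 4 of these 12 genes passed the test as higher and 3 as lower with resveratrol than with rosiglitazone, where the share of all clusters called was 0.946% higher and 1.26% lower. The 12 were chosen for lying high on these same resveratrol arrays, so their counts cannot be read against those shares. Obese 3 was the lowest obese array in 9 of the 12.

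**Figure D2:**
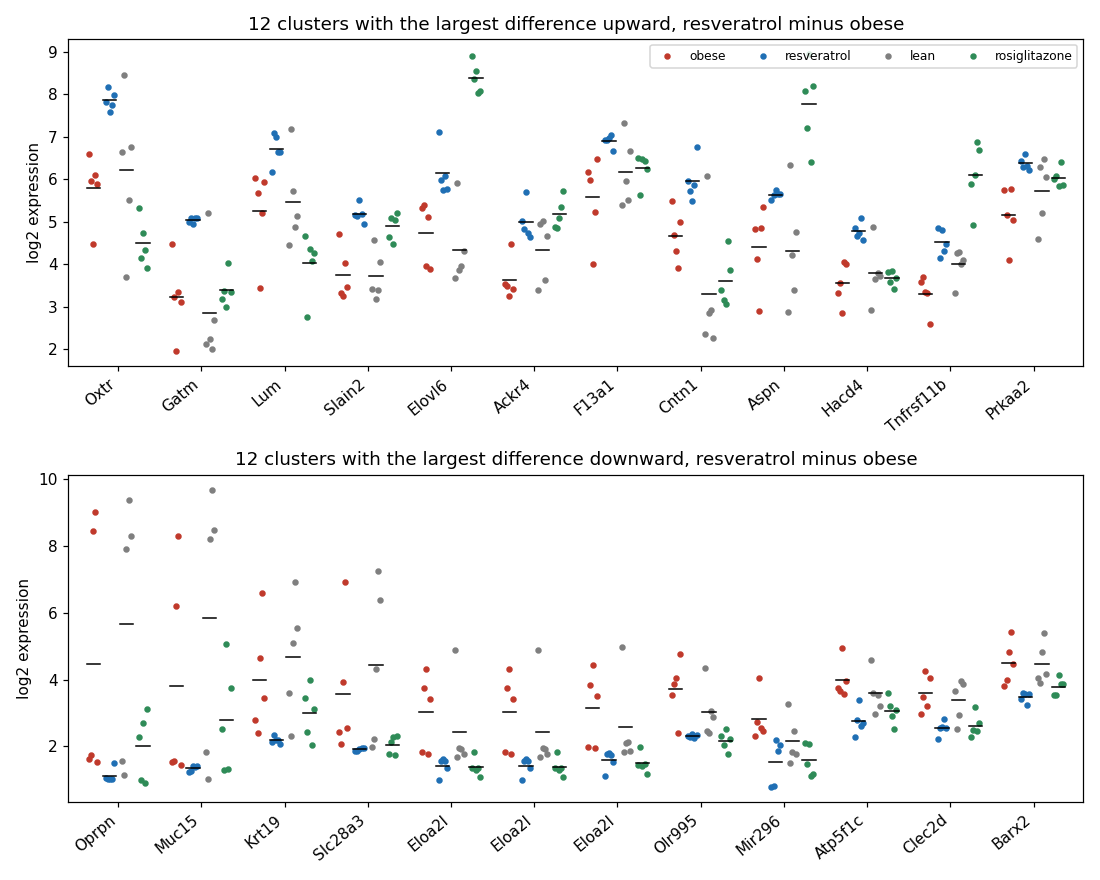
Log2 expression on every array (points) with the group mean (bars) for the 12 named clusters with the largest difference in each direction, resveratrol minus obese, in obese, resveratrol, lean and rosiglitazone rats. In Oprpn and Muc15 only obese 3 and obese 4 are high among the obese arrays, whereas in Gatm and Slain2 all 5 resveratrol arrays lie close together.

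The downward set was of another make-up. Oprpn, which encodes a secreted peptide precursor of glands, measured 1.63, 1.74, 8.44, 9.0 and 1.55 on obese arrays and 1.05, 1.02, 1.01, 1.03 and 1.51 on resveratrol arrays. The mean difference of -3.35 (SE 1.61, adjusted p = 0.199) came from obese 3 and obese 4, and it was -0.51 without them. Muc15, a membrane mucin, had the same pattern, with 6.19 on obese 3, 8.30 on obese 4 and 1.44 to 1.57 on the other obese arrays (difference -2.47, and -0.17 without these arrays). Krt19, a keratin of simple epithelia, and Slc28a3, a nucleoside transporter, differed by -1.78 and -1.67, and by -0.69 and -0.45 without obese 3 and obese 4. These 4 genes rest on 2 of the 5 obese rats.

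Olr995, an olfactory receptor gene, did not rest on them. It measured 3.54, 3.86, 4.06, 2.4 and 4.76 on obese arrays and 2.26 to 2.37 on resveratrol arrays, and obese 4 was the array nearest to the resveratrol values (difference -1.41, SE 0.35, adjusted p = 0.0671, and -1.74 without obese 3 and obese 4). Eloa2l, related to the transcription elongation factor elongin A, was represented by 3 clusters, 2 of them with identical values, which cannot be told apart here. They differed by -1.60, -1.60 and -1.55 (adjusted p of 0.0930 to 0.0953), with obese 2, 3 and 5 high and obese 1 and 4 just above the resveratrol arrays. Clec2d, a lectin that binds an inhibitory receptor of natural killer cells, and Barx2, a homeobox factor, differed by -1.04 and -1.02 (adjusted p = 0.0695 and 0.0722). Obese 3 and obese 4 were the highest obese arrays for Barx2 (4.83 and 5.43), and its difference was -0.60 without them. Atp5f1c, annotated as the gamma subunit of ATP synthase, measured 3.74, 3.67, 4.94, 3.56 and 3.95 in obese and 2.29, 2.79, 3.38, 2.60 and 2.71 with resveratrol (2.33-fold lower in mean, SE of the log2 difference 0.29, adjusted p = 0.0669). It is the only respiratory chain gene of the 24, and its direction was opposite to that of the other ATP synthase genes given further on. Of the 12 clusters, 0 passed the limma test against rosiglitazone.

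Mir296 was the microRNA locus of the downward set. The array measures RNA of the locus and does not separate its mature products, whose RefSeq sequences (GRCr8, chr3:183470079-183470100 for the 3p arm and chr3:183470114-183470134 for the 5p arm, minus strand) are printed 5′ to 3′ to show which seeds, bases 2 to 8 in capitals, the locus can supply:
rno-miR-296-3p: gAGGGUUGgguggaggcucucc
rno-miR-296-5p: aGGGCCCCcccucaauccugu
The arms carry different seeds. The locus measured 2.31, 2.74, 4.05, 2.55 and 2.46 on obese arrays and 0.79, 0.81, 2.19, 1.86 and 2.04 on resveratrol arrays. Obese 3 was highest, resveratrol 1 and 2 lay lowest, and obese 1 lay just above resveratrol 3 (difference -1.29, SE 0.38, adjusted p = 0.0770, and -0.98 without obese 3).

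Genes of oxidative phosphorylation and of the citrate cycle turn fuel into ATP in mitochondria. All measured members of the list made for them were higher in mean with resveratrol. Atp5f1c, which was lower, is not in that list. Of 22 genes listed 18 were measured, and their differences lay between 0.21 and 0.79 with a median of 0.48, against 0.19 over all clusters above the median level. After quantile normalisation the median was 0.33, without obese 3 it was 0.31 and without obese 3 and obese 4 it was 0.33. None passed the adjusted test. An unadjusted p under 0.05 was reached by 14 of 18, all higher, against 13.0% of all clusters higher and 12.1% lower. These shares stand behind such counts in the other lists too, and the share among clusters above the median level was not counted here. The share of clusters higher in mean was not counted either. Since clusters above the median level lay higher in median, counts of members higher in mean cannot be read alone in any list. In 4 of 18 (Atp5f1a, Idh3a, Sdhb and Uqcrc1) the groups did not overlap, where 6.07% of clusters above the median level lay wholly higher with resveratrol. Sdhb, the iron-sulphur subunit of succinate dehydrogenase, measured 6.52, 6.19, 5.66, 6.30 and 6.25 in obese and 6.77, 6.71, 6.67, 6.80 and 6.74 with resveratrol. Its difference was small but regular (0.55, SE 0.13, adjusted p = 0.0669), and rosiglitazone rats stood higher than both at 7.84 ± 0.17. Cyc1 (cytochrome c1 of complex III) measured 5.70, 4.80, 4.54, 5.02 and 4.88 in obese and 5.64 to 5.85 with resveratrol, so that obese 1 lay inside the resveratrol range (difference 0.74, SE 0.18, adjusted p = 0.0671). Cs, citrate synthase, differed by 0.60 (SE 0.15, adjusted p = 0.0673), and the ATP synthase genes Atp5f1a and Atp5f1b by 0.40 and 0.46 (0.28 and 0.25 without obese 3). Sdhb, Cyc1 and Cs passed the test when obese 1 was left out (adjusted p = 0.0150 for Sdhb, 0.00706 for Cyc1 and 0.0261 for Cs) and when obese 4 was left out (0.0385, 0.0421 and 0.0343). These settings drop the obese arrays nearest to resveratrol, and 9.03% and 6.27% of all clusters then passed. The passes are therefore no separate support. Sdhb, Cyc1 and Cs also passed when lean 1 was left out, as did 2.93% of all clusters, and thus in 3 of 31 settings. Their adjusted p reached 0.209, 0.163 and 0.230 in others.

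The mean over the 18 genes was 6.58, 6.21, 5.60, 6.25 and 6.06 on obese arrays and 6.76, 6.67, 6.46, 6.60 and 6.73 on resveratrol arrays. Obese 1 lay above resveratrol 3, and obese 3 lay lowest. Lean rats had 6.38 ± 0.13 (6.33 ± 0.060 without lean 2, n = 4) and rosiglitazone rats 7.66 ± 0.15 (SD, n = 5). In the direct contrast 16 of the 18 were lower with resveratrol than with rosiglitazone (adjusted p under 0.05 over all clusters), against 1.26% of all clusters, with a median difference of -1.01. The largest of these differences were in Idh3a (-1.51), Ndufv1 (-1.40) and Uqcrc1 (-1.33). Both treatments are compared here without the obese arrays, except through the shared spread.

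To show what sequence the respiratory genes offer to the nuclear respiratory factor NRF1, their RefSeq promoters (GRCr8, 250 bases before to 50 after the start) were searched on both strands for GCGCA followed by any base and GCGC. It occurred in 2 of 15 members with a promoter entry (13.3%), against 4.25% of 33469 promoters. Sdha (succinate dehydrogenase subunit A, chr1:30764303-30764602, plus strand) held 3 matches and Uqcrc1 (a core protein of complex III, chr8:118467973-118468272, plus strand) held 1, shown in capitals:
Sdha: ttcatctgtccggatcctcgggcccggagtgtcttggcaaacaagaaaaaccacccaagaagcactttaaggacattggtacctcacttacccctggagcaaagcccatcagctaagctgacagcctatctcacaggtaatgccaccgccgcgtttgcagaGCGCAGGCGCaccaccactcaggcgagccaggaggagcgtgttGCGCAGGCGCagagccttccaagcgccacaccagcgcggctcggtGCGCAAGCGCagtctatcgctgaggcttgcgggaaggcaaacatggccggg
Uqcrc1: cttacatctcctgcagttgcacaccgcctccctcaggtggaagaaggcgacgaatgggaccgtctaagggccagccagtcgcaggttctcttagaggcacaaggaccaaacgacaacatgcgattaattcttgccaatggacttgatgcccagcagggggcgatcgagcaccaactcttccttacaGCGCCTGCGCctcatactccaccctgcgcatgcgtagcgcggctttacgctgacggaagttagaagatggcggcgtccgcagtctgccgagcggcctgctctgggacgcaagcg
Sdha measured 6.83 to 7.68 in obese and 7.67 to 7.95 with resveratrol (difference 0.42, SE 0.15, adjusted p = 0.110, and 0.24 without obese 3 and obese 4). Uqcrc1 measured 4.47 to 5.93 and 5.98 to 6.29 (difference 0.71, SE 0.21, adjusted p = 0.0772, and 0.46 without obese 3). Among the leading genes of the list, Sdhb and Cs held 0 matches. A match describes letters only.

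**Figure D3:**
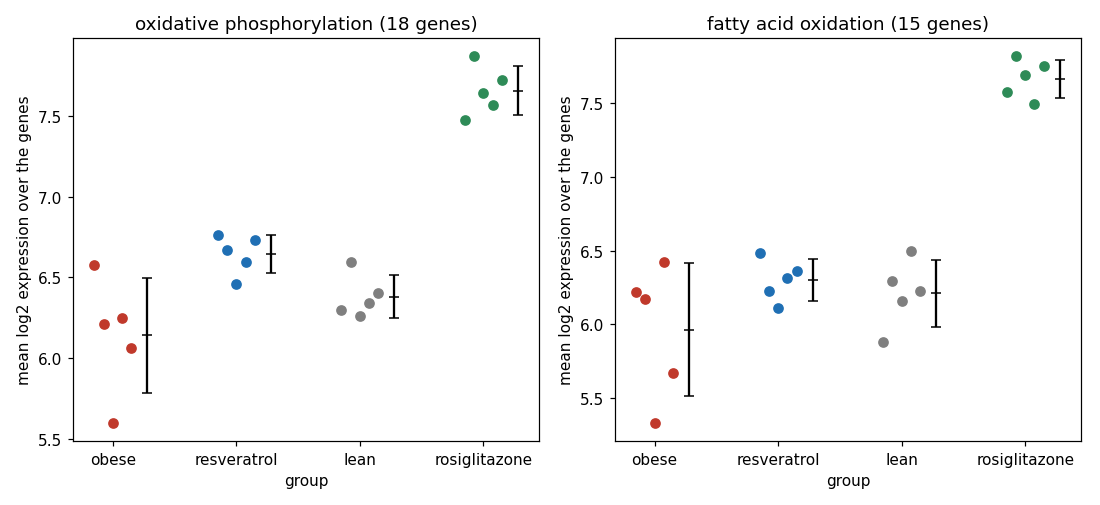
Mean log2 expression over the genes of oxidative phosphorylation (18) and of fatty acid oxidation (15) on each array (points), with the mean and SD of each group of 5. Obese 3 is the lowest array for both lists, and the rosiglitazone arrays lie above all others.

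Fatty acid oxidation, which feeds that chain, was higher in mean for 13 of 15 genes (median 0.32, 0.17 after quantile normalisation, 0.18 without obese 3). Of these, 7 had an unadjusted p under 0.05, all higher, against 13.0% of all clusters, and 0 passed the adjusted test. Cpt1b, the muscle-type carnitine palmitoyltransferase that admits fatty acids to mitochondria, measured 5.14, 4.73, 4.10, 4.65 and 4.51 in obese and 5.44, 5.56, 5.46, 5.67 and 5.55 with resveratrol. The groups did not overlap (1.88-fold, SE of the log2 difference 0.26, adjusted p = 0.0746), and rosiglitazone rats measured 8.05 ± 0.20. Etfdh, which passes electrons from fatty acid oxidation to ubiquinone, differed by 0.67 (SE 0.18, adjusted p = 0.0700) and Hadhb, of the trifunctional protein, by 0.65 (SE 0.20, adjusted p = 0.0826, and 0.41 without obese 3). Compared with rosiglitazone, 11 of 15 genes passed the test as lower with resveratrol, against 1.26% of all clusters, with a median of -1.32. For Cpt1b that difference was -2.52 (adjusted p = 1.31e-05).

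Of the SIRT1, AMPK and mitochondrial biogenesis list 14 of 17 genes were measured, and Sirt1 itself was not analysed here. The median was 0.27 (0.21 after quantile normalisation, 0.19 without obese 3), and 5 had an unadjusted p under 0.05, all higher. Tfb2m, a transcription factor of mitochondrial DNA, measured 4.10, 4.18, 3.16, 4.29 and 3.74 in obese and 4.98, 4.53, 5.02, 4.99 and 4.70 with resveratrol. Its groups did not overlap (1.93-fold, SE of the log2 difference 0.20, adjusted p = 0.0622), and with clusters below the median level left out of the test it passed (adjusted p = 0.0482). Prkaa1, the other catalytic AMPK subunit, differed by 0.45 (adjusted p = 0.189, and 0.21 without obese 3) and Ppargc1b, the PGC-1 beta gene, by 0.43 (adjusted p = 0.171). Ppargc1a, the PGC-1 alpha gene, was below the median level in both groups and differed by 0.08 (adjusted p = 0.762), and the mitochondrial deacetylase Sirt3 differed by -0.08 (adjusted p = 0.768). Without obese 3 and obese 4 both signs turned (-0.04 and 0.09). Ppargc1a was lower with resveratrol than with rosiglitazone by 0.67 (adjusted p = 0.0234).

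Genes of fatty acid and triglyceride synthesis had a median of 0.39 over 14 measured genes (0.33 after quantile normalisation, 0.23 without obese 3), of which 4 had an unadjusted p under 0.05, all higher. Besides Elovl6 these included Me1 (malic enzyme, a source of NADPH), which differed by 0.95 (SE 0.31, adjusted p = 0.0903), and Elovl5, which lengthens polyunsaturated fatty acids, by 0.59 (SE 0.20, adjusted p = 0.0966, and 0.38 without obese 3). Scd, the stearoyl-CoA desaturase, measured 10.14, 10.32, 10.03, 9.55 and 10.21 in obese and 10.66, 10.47, 10.63, 10.64 and 10.78 with resveratrol. The groups did not overlap, but rats of other groups varied and the difference of 0.58 had an adjusted p of 0.204. Fads2, a desaturase, ran the other way in mean (-1.60, adjusted p = 0.362) through 7.50 on obese 3 and 8.31 on obese 4, against 3.36 to 3.54 on the other obese arrays, and its difference without these arrays was 0.19. Srebf1, the lipogenic transcription factor, differed by -0.05 (adjusted p = 0.938), and by 0.17 without them.

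Cholesterol synthesis had the highest list median, 0.54 over 7 genes (0.45 after quantile normalisation, 0.40 without obese 3), and 5 of 7 had an unadjusted p under 0.05, all higher, against 13.0% of all clusters. Fdft1 (squalene synthase) measured 5.17, 5.41, 4.20, 5.30 and 4.73 in obese and 5.65, 6.13, 5.72, 5.70 and 5.78 with resveratrol (difference 0.83, SE 0.23, adjusted p = 0.0735). Dhcr7, which makes the last step of synthesis, differed by 0.66 (SE 0.25, adjusted p = 0.122) with groups that did not overlap. Insig1, the sterol-regulated brake on the pathway, differed by 0.70 (SE 0.27, adjusted p = 0.125, and 0.45 without obese 3). None of the 7 passed the test against rosiglitazone. The sterol regulatory element TCACNCCAC, searched on both strands, was in 0 of 5 promoters of the list and in 1.12% of all promoters.

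In the list of NRF2 targets and antioxidant enzymes, 12 of 13 genes were higher in mean, with a median of 0.42 (0.40 after quantile normalisation, 0.30 without obese 3). Of the 13, 8 had an unadjusted p under 0.05, all higher, against 13.0% of all clusters. Sod2, the superoxide dismutase of mitochondria, measured 6.76, 5.84, 5.02, 6.18 and 5.91 in obese and 6.87, 6.61, 6.45, 6.84 and 6.73 with resveratrol. Obese 1 lay within the resveratrol range (difference 0.76, SE 0.21, adjusted p = 0.0719). Nqo1, the quinone reductase used as a reporter of NRF2 activity, measured 4.36, 4.0, 3.55, 3.88 and 3.86 in obese and 4.74, 4.79, 4.61, 4.67 and 4.93 with resveratrol. Its groups did not overlap (1.76-fold, SE of the log2 difference 0.25, adjusted p = 0.0824), and Nfe2l2, which encodes NRF2, differed by 0.42 (SE 0.15, adjusted p = 0.108, and 0.26 without obese 3). Hmox1 (haem oxygenase 1) had the largest difference of the list, 1.16 (SE 0.56, adjusted p = 0.198), and rested on resveratrol 2 with 7.39, where the other resveratrol arrays had 4.0 to 4.55 and obese arrays 3.34 to 4.09. That array was also highest for the heat shock genes Hsph1 (8.69, others of its group 5.72 to 6.62) and Hspa1b (7.06, others 2.86 to 3.66).

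The core of the antioxidant response element, TGACNNNGC on either strand, was in 3 of 10 promoters of the list (30.0%; Gclm, Nfe2l2 and Sod2), against 12.1% of all promoters. The promoter of Sod2 (chr1:50050119-50050418, minus strand, GRCr8, RefSeq) is shown as the leading gene of the list, with its match, which lies on the opposite strand, in capitals:
Sod2: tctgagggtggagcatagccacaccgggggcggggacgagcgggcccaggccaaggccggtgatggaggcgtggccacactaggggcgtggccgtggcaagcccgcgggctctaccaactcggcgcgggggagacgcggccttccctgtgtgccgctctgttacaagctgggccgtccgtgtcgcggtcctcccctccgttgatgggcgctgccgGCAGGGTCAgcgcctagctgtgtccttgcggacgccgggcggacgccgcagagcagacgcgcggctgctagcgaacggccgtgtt
Nqo1 held 0 matches in this window.

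Among genes of insulin signalling and glucose uptake, 9 of 10 were higher in mean (median 0.27, 0.09 after quantile normalisation, 0.15 without obese 3), and 3 had an unadjusted p under 0.05. All clusters above the median level had a median of 0.11 after quantile normalisation and 0.13 without obese 3. Slc2a4, the insulin-dependent glucose transporter GLUT4, measured 2.93 to 4.05 in obese and 3.82 to 4.43 with resveratrol (difference 0.68, SE 0.21, adjusted p = 0.0826), and it was lower than with rosiglitazone by 1.17 (adjusted p = 0.00311). Pik3ca, a catalytic subunit of PI 3-kinase, differed by 1.10 (SE 0.25, adjusted p = 0.0646) with 2.43 on resveratrol 2 and 3.60 to 3.92 on the other 4. Insr, the insulin receptor, differed by 0.51 (adjusted p = 0.132, and 0.30 without obese 3). Lipolysis genes had a median of 0.22 (0.07 after quantile normalisation, 0.08 without obese 3, 5 genes), led by Pde3b, the phosphodiesterase through which insulin restrains lipolysis (0.54, adjusted p = 0.113, and 0.28 without obese 3 and obese 4).

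Adipocyte identity and adipokine genes differed little (median 0.17, 0.11 after quantile normalisation, 0.10 without obese 3, 14 genes, 2 with an unadjusted p under 0.05). Lep measured 10.23, 10.11, 9.24, 9.65 and 9.99 in obese and 10.30, 10.37, 10.41, 10.57 and 10.45 with resveratrol. All resveratrol arrays were above all obese arrays, by 0.58 in mean (SE 0.49, adjusted p = 0.463, and 0.31 without obese 3 and obese 4). This SE rests on the spread shared over all 4 groups, lean 2 included, and is not that of the resveratrol and obese arrays alone. Rarres2, the adipokine chemerin, differed by 0.67 (adjusted p = 0.133), and by 0.32 without obese 3, whose value was 4.93 against 6.46 to 6.97 on the other obese arrays. Brown and beige fat genes had a median of -0.11, which turned to 0.05 after quantile normalisation and was -0.04 without obese 3. Of 9 genes, 2 were higher and 7 lower in mean, and 2 in each direction had an unadjusted p under 0.05. Those lower included Zic1, which differed by -0.48 to -0.24 over the settings run, and Elovl3, by -0.33 to -0.13. Cidea, a lipid droplet protein of brown and beige fat, measured 8.92, 8.98, 6.89, 8.29 and 8.68 in obese and 9.23 to 9.5 with resveratrol (difference 0.98, SE 0.34, adjusted p = 0.0994). Obese 3 was its lowest array, and the difference was 0.61 without obese 3 and 0.47 without obese 3 and obese 4. Ucp1, the uncoupling protein of brown fat, was below the median level on all 10 arrays, with 1.37 to 2.27 in obese and 0.99 to 2.08 with resveratrol (difference -0.32, adjusted p = 0.294, and -0.19 without obese 3).

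Macrophage markers had a median of 0.37 (0.34 after quantile normalisation, 0.37 without obese 3, 12 genes), and 5 of 12 had an unadjusted p under 0.05, all higher, against 13.0% of all clusters. In mean 10 of the 12 were higher and 2 lower. The mean over the list overlapped between the groups, with 5.12 to 6.14 in obese, highest on obese 5, and 5.79 to 6.35 with resveratrol. The list was led by the complement genes. C1qb measured 5.79, 5.38, 4.63, 5.16 and 5.98 in obese and 6.55, 6.62, 6.53, 6.58 and 6.40 with resveratrol (2.21-fold, SE of the log2 difference 0.29, adjusted p = 0.0671), and its groups did not overlap. C1qc differed by 0.94 (SE 0.28, adjusted p = 0.0798) and C1qa by 0.56 (adjusted p = 0.171), also without overlap (C1qa by 0.30 without obese 3 and obese 4). The defining markers Csf1r and Cd68 overlapped between the groups and differed by 0.61 and 0.33 (adjusted p = 0.182 and 0.527), and by 0.41 and 0.10 without obese 3. In whole tissue, more cells of a type and more RNA per cell cannot be told apart.

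Inflammation genes were evenly split, with 9 of 18 higher and 9 lower in mean and a median of -0.03, which turned to 0.07 after quantile normalisation and 0.06 without obese 3. At an unadjusted p under 0.05, Vcam1 (an adhesion molecule of activated endothelium, 0.49) and Nfkb1 (a subunit of NF-kappa B, 0.47) were higher and Tnf was lower (-0.27), with adjusted p of 0.138, 0.172 and 0.132 (Nfkb1 by 0.28 without obese 3). Ccl2, the monocyte chemokine, differed by 0.77 (adjusted p = 0.231) and Il6 by -0.21 (adjusted p = 0.325, and -0.11 without obese 3). Targets of the aryl hydrocarbon receptor, of which resveratrol is a known antagonist, had a median of 0.00 over 4 genes (-0.05 without obese 3). Cyp1b1 differed by 0.45 from obese (adjusted p = 0.111, and 0.27 without obese 3 and obese 4) and was higher with resveratrol than with rosiglitazone by 0.94 (adjusted p = 0.00242), and Cyp1a1 differed by -0.24 (adjusted p = 0.388, and -0.08 without obese 3).

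Extracellular matrix genes were higher in mean in 19 of 20 (median 0.27, 0.16 after quantile normalisation, 4 with an unadjusted p under 0.05). Without obese 3 the median was 0.12, where all clusters above the median level had 0.13, and it was 0.06 without obese 3 and obese 4. After Lum they were led by Fbn1 (fibrillin 1, 0.90, adjusted p = 0.137) and Eln (elastin, 0.68, adjusted p = 0.169), whereas the main fibrillar collagens Col1a1 and Col3a1 differed by -0.05 and 0.07 (-0.21 and -0.10 without obese 3). Stromal and preadipocyte markers had a median of 0.29 (0.10 after quantile normalisation, 0.16 without obese 3, 10 genes), led by Pi16, a marker of adipose progenitors, at 4.27, 3.77, 4.13, 4.07 and 4.48 in obese and 5.64, 5.00, 5.34, 4.77 and 4.73 with resveratrol (difference 0.96, SE 0.36, adjusted p = 0.121). Its groups did not overlap. Of the 10 markers, 9 were higher in mean and 1, Dlk1, was lower. Dlk1 differed by -0.40 (unadjusted p under 0.05), and by -0.51 to -0.27 over the settings run. Endothelial and mural markers had a median of 0.30 (0.12 after quantile normalisation, 0.20 without obese 3, 5 genes), led by Cldn5, a tight junction protein (0.63, adjusted p = 0.134). Against rosiglitazone 3 of these 5 passed the test as higher with resveratrol, Cldn5 by 1.52, Cdh5 by 1.09 and Tek by 0.67, and Vwf passed as lower by 0.89. Of all clusters 0.946% were called higher and 1.26% lower.

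Cell cycle genes had a median of 0.52 over 11 genes (0.42 after quantile normalisation, 0.38 without obese 3), with 5 at an unadjusted p under 0.05, all higher, against 13.0% of all clusters. Aurkb, a kinase of chromosome segregation, measured 2.83, 3.2, 2.19, 2.4 and 3.08 in obese and 3.93, 3.85, 3.84, 3.66 and 3.45 with resveratrol (2.01-fold, SE of the log2 difference 0.24, adjusted p = 0.0669), with no overlap. Bub1 and Tyms differed by 0.63 and 0.65 (adjusted p = 0.114 and 0.110), and Aurka by -0.24 (-0.39 without obese 3). Genes of the stress and unfolded protein response had a median of 0.26 (0.16 after quantile normalisation, 0.20 without obese 3, 10 genes), led by Dnajb9, a chaperone of the endoplasmic reticulum, at 1.02 (SE 0.22, adjusted p = 0.0622).

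Lists of other cell types had medians on both sides of 0. Skeletal muscle markers had a median of -0.06 over 13 genes, which turned to 0.07 after quantile normalisation and was -0.03 without obese 3, and 0 had an unadjusted p under 0.05. T, B and mast cell markers had a median of 0.09 over 11 genes (0.18 after quantile normalisation, 0.09 without obese 3), and nerve and Schwann cell markers -0.13 over 4 (0.01 and -0.17). Blood cell markers had a median of 0.28 over 7 genes (0.14 after quantile normalisation and 0.07 without obese 3), with 4 higher and 3 lower in mean. Their summed level was 7.36 to 8.63 in obese and 7.99 to 8.59 with resveratrol. Those higher were led by Pf4 of platelets at 0.72 (adjusted p = 0.110, and 0.38 without obese 3 and obese 4) and Slc4a1, the anion exchanger of red cells, at 0.71 (adjusted p = 0.111). Skin and hair markers had a median of -0.37 over 8 genes (-0.23 after quantile normalisation and -0.22 without obese 3), led by Ivl, involucrin (-0.66, adjusted p = 0.0868). Across the 24 lists 0 of 260 members passed the adjusted test. Without obese 1, 32 passed (12.3%, against 9.03% of all clusters), and without obese 4, 21 passed (8.08%, against 6.27%). Without lean 1 there were 12 (4.62%, against 2.93%) and without lean 2 there were 5 (1.92%, against 0.632%).

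**Figure D4:**
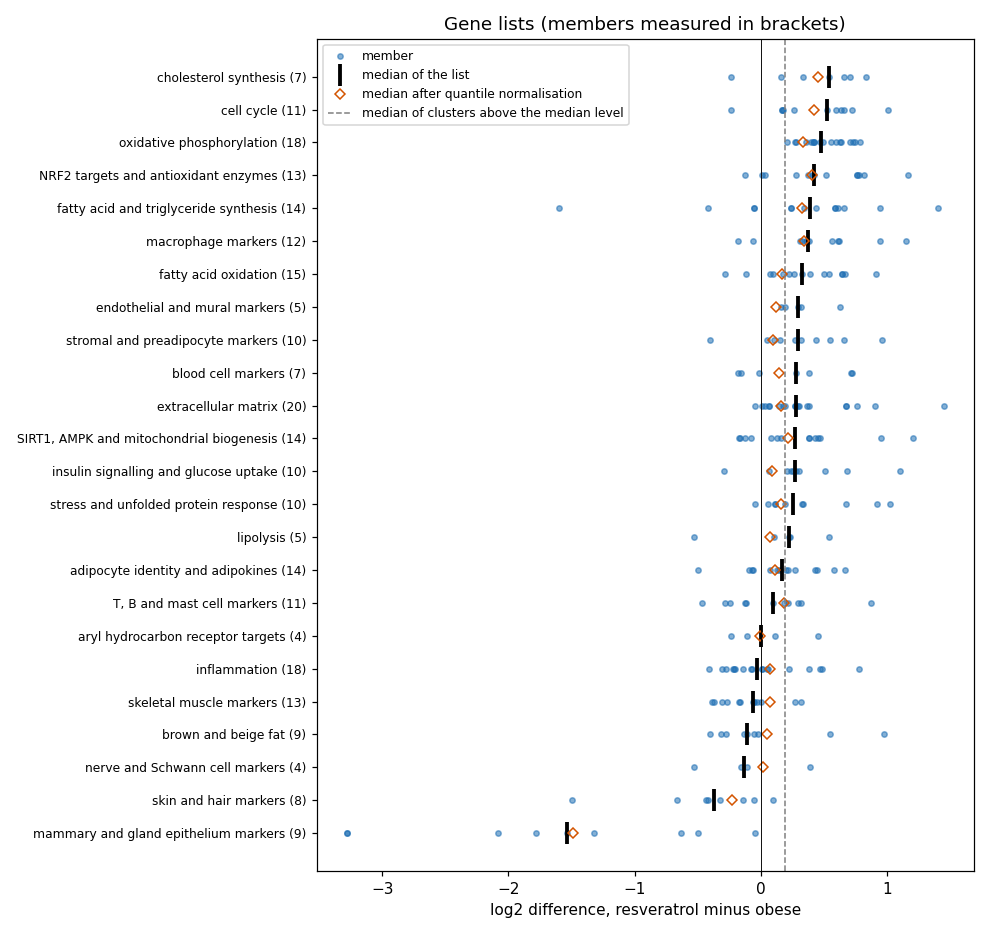
Log2 differences, resveratrol minus obese, of the measured members of each gene list (points, horizontal axis), with the median as deposited (bars) and after quantile normalisation (diamonds). The dashed line marks the median of 0.19 over all clusters above the median level, and the medians of the inflammation, skeletal muscle, brown and beige fat, nerve and aryl hydrocarbon receptor lists change sign between the 2 scalings.

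Gland epithelium made the largest list difference, a median of -1.54 over 9 markers, and it came from 2 obese rats. These are milk and duct genes, measured on arrays of rats labelled male. Csn3 (kappa casein) measured 1.81, 1.96, 9.78, 10.22 and 2.97 on obese arrays and 1.94 to 2.26 on resveratrol arrays. Lalba, the milk protein alpha-lactalbumin, measured 8.35 on obese 3 and 9.90 on obese 4, against 0.99 to 1.43 on the other obese arrays and 0.86 to 1.44 with resveratrol. Elf5, a transcription factor of the mammary epithelium, measured 6.05 and 8.43 on these arrays and at most 1.95 on the other 8. The defining marker Epcam measured 3.83 and 5.57 on them and at most 1.51 on the other 8, near the floor, while Krt8 lay between 2.78 and 4.04 on all 10. The summed level of the 9 markers was 5.27 to 11.4 in obese and 5.19 to 5.40 with resveratrol. Outside this comparison the markers were also high on lean 3, 4 and 5 and rosiglitazone 1, 3 and 5. The median was -1.49 after quantile normalisation, -1.26 without obese 3 and -0.18 without obese 3 and obese 4, and 0 of 9 passed the adjusted test with all arrays.

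**Figure D5:**
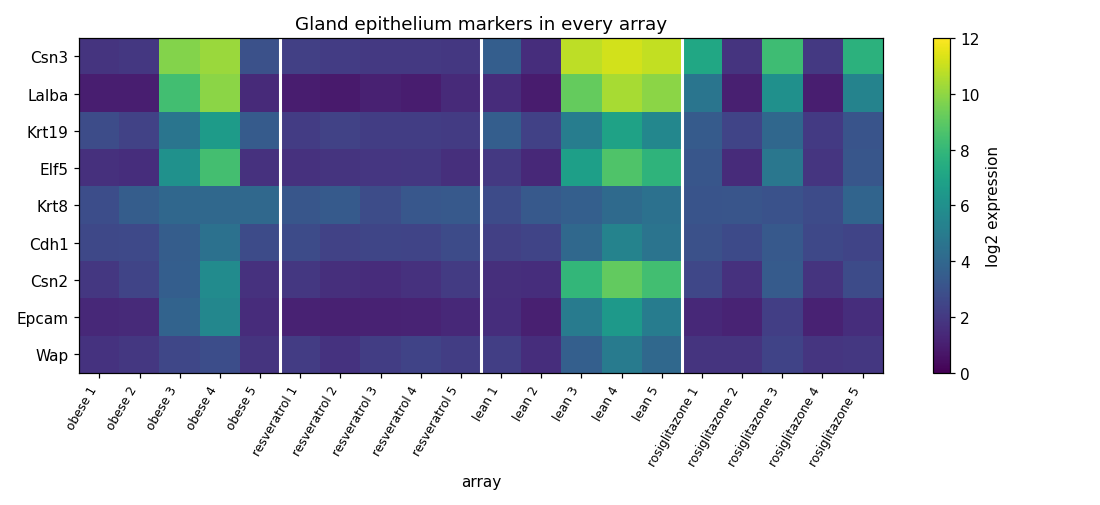
Log2 expression of 9 gland epithelium markers (rows) on each of the 20 arrays (columns), on a colour scale from 0 to 12. The 5 resveratrol arrays and obese 1, 2 and 5 are dark, and obese 3 and 4, lean 3, 4 and 5 and, less brightly, rosiglitazone 1, 3 and 5 stand out.

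With the clusters below the median level left out of the fit and the adjustment, 18343 clusters were tested and 147 passed, 110 higher (0.600%) and 37 lower (0.202%) with resveratrol. These calls sit just inside the threshold, with adjusted p of 0.0482 to 0.0498. Groups did not overlap in 117 of the 147. Over all clusters above the median level, 6.07% lay wholly higher and 1.18% wholly lower with resveratrol. The 147 were selected by p on these same arrays, so their lack of overlap is no separate support. Of the 147, 74 carried 1 gene symbol, 71 of them higher. The 3 lower were H2ab3, Rpl39l1 and Tmem92. Slain2, Ackr4 and Hacd4 of the leading set and Tfb2m, Pik3ca and Dnajb9 of the lists were among them. Others, picked here after their values were seen, act in mitochondria: Gstk1 (a mitochondrial and peroxisomal glutathione transferase, 1.19), Gfm1 (an elongation factor of mitochondrial translation, 1.0), Sdhaf2 (an assembly factor of succinate dehydrogenase, 0.93), Dlat (of the pyruvate dehydrogenase complex, 0.93), Idh3b (of isocitrate dehydrogenase, 0.81), Dlst (of the oxoglutarate dehydrogenase complex, 0.62) and Shmt2 (of serine and glycine metabolism, 0.60). They were chosen as a description, and the share of mitochondrial genes among the calls was not tested.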

How the data were processed

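Per the labels' protocols, 100 ng of total RNA per sample was hybridised to Rat Gene 2.1 ST arrays. The deposited values are log2 expression values per transcript cluster, made with RMA per the submitters' processing notes, without a version or settings. Batch, strip and scan date of the arrays were not known here. The log2 scale is judged from the range of -0.16 to 12.5. Symbols came from GEO's platform annotation, and 14670 of 14824 named clusters matched RefSeq by gene ID. A gene with several clusters was represented in lists by the brightest.

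The deposited values were used without filter or further normalisation. Differences came from limma 3.58.1 in R 4.3.3 (lmFit and eBayes with 1 coefficient for each of the 4 groups over 20 arrays, 19.8 degrees of freedom), adjusted over 36685 clusters by the Benjamini-Hochberg method and called under 0.05. Precision is set by the 5 arrays of a group, with a median SE of 0.19. Array-level values had two-sided exact permutation tests over 252 assignments. Code was tested on simulated data. Named genes were the 12 non-overlapping clusters with 1 symbol and the largest difference in each direction, with the brighter group mean above the median level of 2.55, and the 3 members of each list with the smallest p; other members named in the text were chosen for their role or after their values were seen. The comparison, the lists and the rule were chosen with earlier results of these data known. Alternatives were quantile and cyclic loess normalisation, centring, filters, array weights, a trended robust prior, only 2 groups, a replicate block, a minimum of 1.5-fold and leaving out arrays. Plots used Python 3.11.15 and matplotlib 3.10.9.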

Additional observations from a re-analysis of the deposited data

Results flagged for a closer look

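Of 190 combinations of a group and a value, 19 held an array far from its 4 group mates by Dixon's criterion, where chance alone gives about 1 in 20 groups, or 9.5. The gap between bright and dim clusters was 6.2 on resveratrol 4 and 6.12 to 6.13 on the other resveratrol arrays.

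Among resveratrol arrays the genes set apart were Elovl6 on resveratrol 1 (7.11, others 5.75 to 6.07), Pde3b on the same array (7.66, others 7.14 to 7.25), Oprpn on resveratrol 5 (1.51, others 1.01 to 1.05) and Cyp1b1 on resveratrol 4 (3.79, others 3.19 to 3.28). On resveratrol 2, Pik3ca was low (2.43, others 3.6 to 3.92), Cldn5 was low (4.57, others 5.09 to 5.27) and Fdft1 was high (6.14, others 5.65 to 5.78). On resveratrol 3, the NF-kappa B gene Nfkb1 (5.16, others 5.57 to 5.71), the keratin Krt8 (2.78, others 3.22 to 3.38) and the smooth muscle gene Tagln (6.04, others 7.02 to 7.12) were low.

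Among obese arrays 6 of the 8 values were on obese 3, the array with the compressed range. They were Mir296 (4.05, others 2.32 to 2.74), Atp5f1c (4.94, others 3.56 to 3.95), Casq1, a calcium store protein of muscle (2.57, others 1.77 to 1.99), Rarres2 (4.93, others 6.47 to 6.97), Cdh5 (7.9, others 8.36 to 8.48) and Insig1 (6.72, others 7.92 to 8.04). Obese 4 was set apart for Ackr4 (4.46, others 3.25 to 3.53) and for Cpa3, a mast cell protease (4.61, others 3.07 to 3.51).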

How the results depend on the processing

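The count of called clusters was 0 with all clusters and arrays. It was also 0 with the lower quartile of level left out, a trended robust prior, array weights and only the 2 groups. A minimum of 1.5-fold cannot lower a p of the main test, so its count of 0 was fixed in advance. The count was 1 after quantile normalisation, 1 after cyclic loess and 64 (54 higher, 10 lower) after centring. It was 147 with clusters below the median level left out and 12 without obese 3 and obese 4. The cause was not tested. At 147 fewer clusters are adjusted over, and the fit with its shared estimate of the spread was made anew on them. Leaving out single arrays gave 0 to 3314 calls and 0 to 32 list members, and the filter on level gave 3 list members. Cyclic loess, the joint omission and the omission of lean or rosiglitazone arrays were chosen after seeing the data. The calls without obese 1 and without obese 4 shared 1637 clusters, 49.4% and 71.1% of each. The array SD differed by 0.072 (without obese 3) to 0.13, the array median by -0.16 to -0.088 and the gap by 0.24 to 0.48 as single arrays were left out. Without resveratrol 4 the gap of 0.39 had an adjusted exact p of 0.0556. With clusters below the median level left out, the array median turned to 0.13 (adjusted exact p = 0.0238).

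With the replicate block the differences were 0.11 for the SD, -0.13 for the median and 0.40 for the gap, each with an adjusted exact sign-flip p of 0.0625, the smallest 5 pairs allow, and 0 clusters were called. Arrays with the same number correlated between -0.01 and 0.12 in their deviations, and 2 of 5 resveratrol arrays matched their own number best, so the block was not used.

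Signs turned for Ahrr (0.041 after quantile normalisation, 0.023 after centring, 0.050 after loess), Tubb3 (0.021, 0.020 and 0.050, and -0.20 to 0.040 as single arrays were left out), Tnnt1 (0.0026 after loess) and Tagln (-0.0070 after loess). The other clusters taken by the naming rule kept their direction under every setting run. Members named outside that rule were recomputed only after quantile normalisation, without obese 3 and without obese 3 and obese 4. Among them the last turned Fads2 (0.19), Srebf1 (0.17), Sirt3 (0.09), Ppargc1a (-0.04), Elf5 (0.15), Col3a1 (-0.15) and Myh4 (0.19), omission of obese 3 alone turned Col3a1 (-0.10) and Myh4 (0.02), and quantile normalisation turned Sirt3 (0.06), Ckm (0.07), Myh4 (0.13), Tek (-0.01) and Vwf (-0.02). Batch could not be examined, values near the floor compress differences, and a miss of the threshold does not show that groups are alike.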
